A study of Sus scrofa with 6 samples.

Results

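Translation initiation factors were examined in longissimus dorsi, a muscle of the back, from 3 UCP1 KI pigs and 3 WT pigs, all aged 6 months. UCP1 KI pigs carry an adipocyte-specific knock-in of *UCP1*, the uncoupling protein of thermogenic fat, made with CRISPR/Cas9, whereas WT pigs are wild type. The labels and the study's methods name no treatment of either genotype. Some captions of the study speak of cold exposure, but its results credit the same gene changes to the knock-in. Its discussion leaves cold acclimation of UCP1 KI pigs to further work. Apart from those captions, the study does not say that these pigs were kept in the cold. The promoter that drives the knock-in, the number of founder clones, the sex of the pigs and their litters are not given in the sources used here. Members were all pig Ensembl genes whose symbol begins with EIF1 to EIF6, apart from *EIF1AY*, with at least 10 counts in at least 3 of the 6 libraries. This rule kept 44 of the 30476 genes in the count table. The gene name table held 46 such symbols, 45 of which were in the count table, and *EIF4E1B* was left out with 0 counts in every pig, which allows up to 3 counts in a library. *EIF5A*, *EIF5*, *EIF2S3*, *EIF2B1*, *EIF3C* and *EIF3K* were paired with no identifier and were not analysed here. The same holds for *UCP1*, so that the genotype was not checked from the counts.

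Initiation is the step of protein synthesis at which the ribosome is brought to an mRNA and finds its start codon. eIF2 carries the initiator tRNA to the small ribosomal subunit and eIF2B recharges eIF2 with GTP, a reaction that the eIF2 kinases block under stress by phosphorylating eIF2α. eIF3 is the large scaffold on the small subunit, and eIF4E, eIF4G and eIF4A together form eIF4F, which binds the mRNA cap and unwinds the leader, while 4E-BP proteins hold eIF4E back until mTORC1 phosphorylates them. In skeletal muscle this step is a main point at which feeding and exercise act on protein synthesis.

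The 6 libraries held between 30220951 and 35066624 counts, and levels are given below as CPM, the counts scaled to a library total of 1000000 after correction by edgeR's TMM factors. Of 12 muscle markers listed 9 were measured and 0 were called, with *ACTA1* (skeletal actin) between 30309 and 55971 CPM in all 6 pigs. *PVALB* (parvalbumin), a marker of fast fibres, was at 0.337 CPM in UCP1 KI replicate 2 and between 59.5 and 272 CPM in the other pigs. The 20 most abundant genes held 56.5% of the counts in WT replicate 2 and between 39.0% and 44.8% in the other pigs. Of 8 fibroblast markers measured, 4 were called lower in UCP1 KI pigs. These were the collagens *COL1A1* (log2 fold change -1.86), *COL1A2* (-1.70) and *COL3A1* (-1.57), and *LUM* (-0.57). *PDGFRA* (-0.08), *DCN* (-0.39), *DPT* (0.17) and *FBN1* (-0.69) were not called. The sum of all 8, collagens included, lay between 258 and 454 CPM in UCP1 KI pigs and between 758 and 1216 CPM in WT pigs. Of 8 leukocyte markers tested, 3 were called higher, all 8 had a fitted value above 0, and their median log2 fold change was 0.79. Their sums of 532 to 989.7 CPM and 502 to 1008 CPM overlapped and were mostly *CD74*, while *CD2*, a T cell marker, was at 3.46, 8.19 and 0.715 CPM against 0.910, 0.730 and 0.534 CPM. Adipocyte markers (7 tested, 1 called lower) summed to 243 to 371 CPM and 289.7 to 595 CPM. Of these, 1 had a fitted value above 0, and their median log2 fold change was -0.85. Endothelial markers (7 tested, 1 called higher) summed to 339 to 620.3 CPM and 308 to 571 CPM. All 7 had fitted values above 0, with a median of 0.15. Red blood cell markers (3 tested, 0 called) summed to 11.4 to 76.0 CPM and 105 to 180.2 CPM, without overlap. Of these, 0 had a fitted value above 0, and their median log2 fold change was -1.29. Of 4 satellite cell and 5 Schwann cell markers 0 were called, and 2 and 1 had fitted values above 0. The part of these cell types in the results below was not tested, and in whole muscle fewer cells of a type and less RNA per cell cannot be told apart.

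The mRNA levels of most initiation factors differed between UCP1 KI and WT pigs by less than the spread between pigs. A gene was called where edgeR's quasi-likelihood test gave an unadjusted p under 0.05 and the log2 fold change exceeded 0.5 in size, which held for 2 of the 44 genes (4.55%). *EIF2B5*, the catalytic subunit of eIF2B, rose in UCP1 KI pigs, and *EIF2AK2*, the eIF2 kinase PKR that is activated by double-stranded RNA, fell. Over all 13402 genes tested the same rule called 1097 genes, or 8.19% of them, with 3.84% higher and 4.34% lower. After Benjamini-Hochberg adjustment of edgeR's p over all genes, 0 of the 44 genes (smallest 0.583) and 0 of all 13402 genes had an adjusted p under 0.05. At an unadjusted p under 0.05 there were 2 of the 44 genes, beside 8.21% of all genes. DESeq2 on the same genes gave 0 members beside 0.948% of all genes at the adjusted limit, and 4 members beside 9.86% at the unadjusted limit. With DESeq2 the called members were *EIF2B5*, *EIF2AK2*, *EIF4E* and *EIF4E3*, beside 9.77% of all genes, and *EIF4EBP1* joined them when all genes with any count entered DESeq2 (6.92% of all genes called).

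The median log2 fold change of the 44 genes, UCP1 KI against WT, was 0.12, beside -0.015 for all genes tested, and 29 of the 44 had a fitted value above 0 (65.9%, beside 48.7% of all genes). Both the scaling and single WT pigs moved this median. It was -0.015 without WT replicate 1, where 21 of the 44 values were above 0, and 0.29 without WT replicate 3. With library size only, which raised the median of all genes by 0.25 and the share of higher genes among all those called from 46.9% to 82.7%, the median of the 44 genes was 0.40 and its distance from that of all genes went from 0.13 to 0.16. With that scaling *EIF1AD*, *EIF2B5*, *EIF2S1* and *EIF4EBP1* were called, all higher, and 8.39% of all genes were called. The median size of the change, regardless of direction, was 0.21 for the 44 genes and 0.33 for all genes tested. In 7 of the 44 genes (15.9%) the UCP1 KI and WT pigs did not overlap in CPM, beside 15.3% of all genes tested. Of these, 6 were higher in UCP1 KI pigs and 1 was lower, where 7.59% and 7.69% of all genes were higher and lower without overlap. For each of the 7 genes a two-sided exact permutation test over pigs gave p = 0.1, below which 3 against 3 pigs cannot go. The lack of overlap fixes that value, so the test adds nothing to it.

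**Figure D1:**
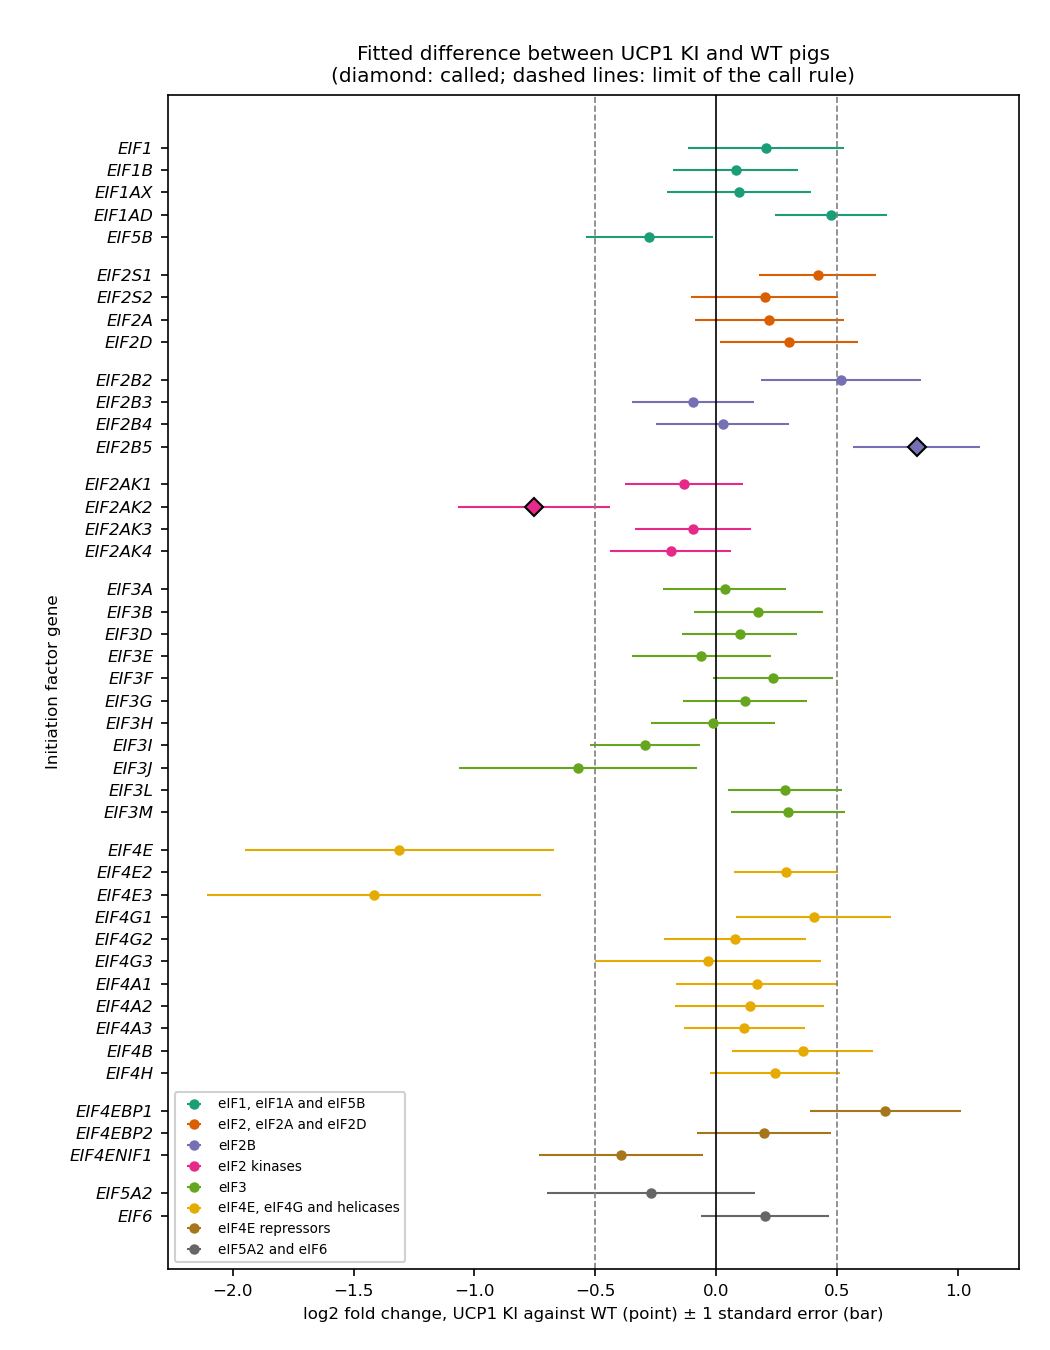
Fitted log2 fold change (UCP1 KI against WT, horizontal axis) of the 44 initiation factor genes, ordered and coloured by role, with bars of ± 1 standard error and diamonds for the 2 called genes. *EIF2B5* lies at 0.83 and *EIF2AK2* at -0.76, *EIF4E* and *EIF4E3* lie further out than either with wide bars, and most other genes lie between the dashed lines at ± 0.5.

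The difference that was called under every setting tried lay in eIF2B, the exchange factor that reloads eIF2 with GTP. *EIF2B5* (ENSSSCG00000011783; Sscrofa11.1, chromosome 13, 122060408 to 122070327) was measured at 38.6, 42.0 and 55.8 CPM in UCP1 KI replicates 1 to 3 and at 19.96, 26.3 and 30.6 CPM in WT replicates 1 to 3. Every UCP1 KI pig was thus above every WT pig. The means were 45.5 ± 9.11 CPM (SD, n = 3) and 25.6 ± 5.34 CPM (SD, n = 3). The log2 fold change was 0.83 (standard error 0.26, 95% interval 0.22 to 1.44). edgeR gave it an unadjusted p of 0.0140 and an adjusted p of 0.583. *EIF2B5* was the single member called in all 6 fits that left out 1 pig, where its log2 fold change lay between 0.66 and 0.98, and it was 1.12 with library size only. Those 6 fits called 4.92% to 11.12% of all genes each, and the share of all genes called in all 6 was not counted.

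The 3 other subunits of eIF2B that were measured were not called. *EIF2B2*, the β subunit of the regulatory part, was at 12.3, 22.7 and 15.2 CPM in UCP1 KI pigs and at 13.4, 8.07 and 13.6 CPM in WT pigs. The fitted log2 difference was 0.52 (standard error 0.33, unadjusted p of 0.158 from edgeR). With 1 pig left out it lay between 0.22 (without UCP1 KI replicate 2) and 0.70 (without UCP1 KI replicate 1). For *EIF2B4*, the δ subunit, the values were 36.4, 39.8 and 41.9 CPM against 28.8, 34.4 and 52.9 CPM, with a log2 fold change of 0.03 (95% interval -0.61 to 0.67). *EIF2B3*, the γ subunit that partners *EIF2B5* in the catalytic part, was at 19.1, 13.4 and 21.9 CPM against 19.7, 20.05 and 18.3 CPM. Its log2 fold change of -0.09 (95% interval -0.68 to 0.49) was 0.15 with library size only. Both groups overlapped in these 3 genes, and whether *EIF2B5* differed from the other subunits in its response was not tested.

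*EIF2AK2* (ENSSSCG00000008496; Sscrofa11.1, chromosome 3, 103041029 to 103096741) was measured at 13.6, 12.2 and 8.34 CPM in UCP1 KI pigs and at 15.4, 26.2 and 16.1 CPM in WT pigs. All UCP1 KI pigs lay below all WT pigs, but UCP1 KI replicate 1 and WT replicate 1 were close and WT replicate 2 stood well above the rest. The means were 11.4 ± 2.73 CPM (SD, n = 3) and 19.2 ± 6.03 CPM (SD, n = 3). The log2 fold change was -0.76 (standard error 0.31, 95% interval -1.49 to -0.02), with an unadjusted p of 0.0443 and an adjusted p of 0.603 from edgeR. This call was lost without UCP1 KI replicate 2 (-0.81), without UCP1 KI replicate 3 (-0.57), without WT replicate 2 (-0.47) and with library size only (-0.48).

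The remaining eIF2 kinases, each of which answers another stress, were not called. *EIF2AK1* (HRI), the heme-regulated kinase, was at 27.2, 20.5 and 31.0 CPM in UCP1 KI pigs and at 26.4, 26.6 and 33.2 CPM in WT pigs. *EIF2AK3* (PERK), the kinase of the endoplasmic reticulum, was at 7.66, 8.53 and 7.05 CPM against 9.54, 7.60 and 7.71 CPM, among the steadiest of the 44 genes. *EIF2AK4* (GCN2), the sensor of amino acid shortage, was at 8.38, 6.23 and 8.34 CPM against 9.54, 8.84 and 7.78 CPM. The log2 fold changes were -0.13, -0.10 and -0.19, with 95% intervals that spanned -0.77 to 0.46 in all, and with library size only they were 0.12, 0.14 and 0.05. Without WT replicate 1 the value of *EIF2AK3* was 0.0125.

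*EIF2S1* (ENSSSCG00000033295; Sscrofa11.1, chromosome 7, 91085025 to 91109835) encodes eIF2α, the subunit that those kinases phosphorylate. Its level was 28.0, 29.7 and 31.9 CPM in UCP1 KI pigs and 16.8, 24.7 and 25.5 CPM in WT pigs. The groups did not overlap, with WT replicate 1 far below the other pigs. The log2 fold change of 0.42 (standard error 0.24, 95% interval -0.14 to 0.98) did not pass the limits (unadjusted p of 0.121 and adjusted p of 0.672 from edgeR). Leaving out WT replicate 1 lowered it to 0.25. With library size only it was 0.71 and passed them. *EIF2S2*, the β subunit, was at 133, 148 and 154 CPM against 81.3, 127 and 170.0 CPM, with a log2 fold change of 0.20 that was -0.040 without WT replicate 1. *EIF2A* and *EIF2D*, which deliver initiator tRNA by other routes, had log2 fold changes of 0.22 and 0.30 (95% intervals -0.50 to 0.94 and -0.36 to 0.97).

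**Figure D2:**
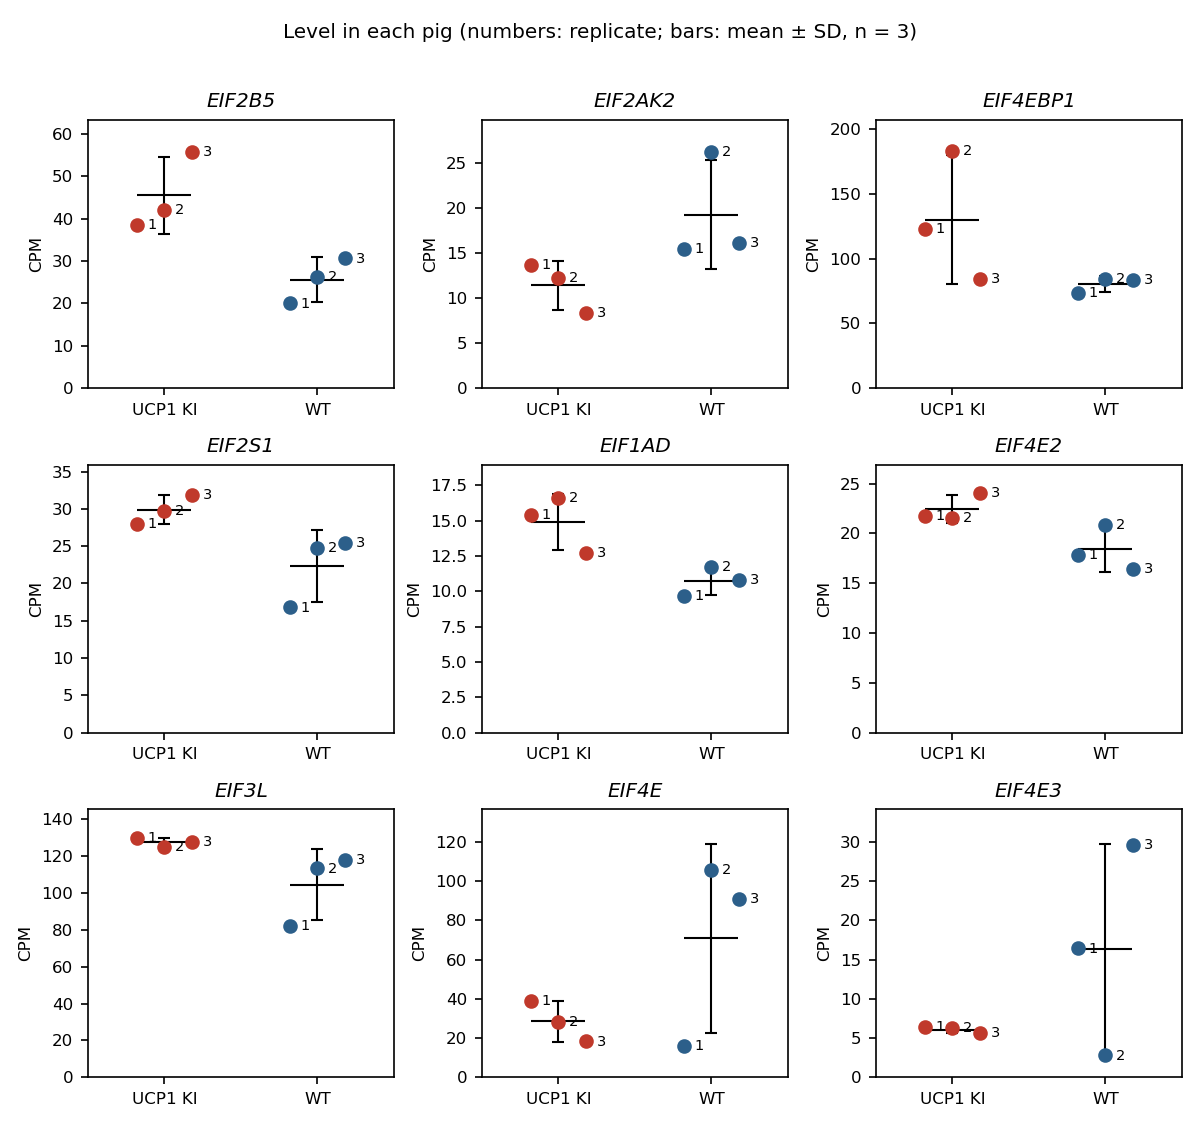
CPM in each pig (vertical axes start at 0, numbers mark the replicate, bars give the mean ± SD of 3 pigs) for the 7 genes whose groups did not overlap and for *EIF4E* and *EIF4E3*. *EIF2B5* separates the groups by 8.02 CPM and *EIF4EBP1* by 0.138 CPM, and *EIF4E* is low in WT replicate 1 but high in the other WT pigs.

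Of the 5 genes for eIF1, eIF1A, their relatives and eIF5B, 0 were called. *EIF1*, the gatekeeper of start codon recognition, was at 1560, 1369 and 1403 CPM in UCP1 KI pigs and at 901 CPM, 1194 CPM and 1658 CPM in WT pigs, which overlapped. *EIF1AD*, a protein with an eIF1A-like domain, was at 15.4, 16.6 and 12.7 CPM against 9.70, 11.7 and 10.8 CPM. The groups did not overlap for *EIF1AD*, whose log2 fold change of 0.47 (standard error 0.23, 95% interval -0.06 to 1.01, unadjusted p of 0.0767, adjusted p of 0.631 from edgeR) passed the limits with library size only, at 0.74. *EIF5B*, the GTPase that joins the ribosomal subunits, had a log2 fold change of -0.28 (95% interval -0.88 to 0.33), which was 0.027 with library size only. The values for *EIF1B*, a close copy of *EIF1*, and for *EIF1AX* were 0.08 and 0.10, and reads of *EIF1AX* may be shared with its Y-linked copy.

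Of the 11 measured subunits of the eIF3 scaffold, 0 were called. Apart from *EIF3J*, log2 fold changes ran from -0.30 for *EIF3I* to 0.30 for *EIF3M*, and the median over the 11 was 0.10. *EIF3A*, the largest subunit and the backbone of the complex, was at 61.5, 72.4 and 68.4 CPM in UCP1 KI pigs and at 58.7, 53.5 and 85.4 CPM in WT pigs. *EIF3A* had a log2 fold change of 0.03 (standard error 0.25, 95% interval -0.55 to 0.62), which was -0.03, -0.04 and -0.10 without UCP1 KI replicate 2, WT replicate 1 and WT replicate 2. *EIF3L*, a peripheral subunit, was at 129.5, 125 and 128 CPM against 82.1, 113 and 118 CPM. The groups did not overlap for *EIF3L*, and the UCP1 KI pigs lay within 1.04-fold of each other. Its log2 fold change of 0.29 (95% interval -0.26 to 0.83) was not called. Leaving out 1 pig gave values from 0.13 (without WT replicate 1) to 0.38 (without WT replicate 3). *EIF3H* varied by 1.34-fold over the 6 pigs, the least of all 44 genes.

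*EIF3J*, a subunit that binds loosely near the mRNA entry channel, had the lowest fitted value of the group and a wide error. It was at 53.9, 141 and 37.3 CPM in UCP1 KI pigs and at 88.5, 112 and 145 CPM in WT pigs. UCP1 KI replicate 2 lay among the WT pigs and the other UCP1 KI pigs lay below all of them. With a log2 difference of -0.57 (standard error 0.49) and an unadjusted p of 0.279 from edgeR, *EIF3J* was not called, and leaving out 1 pig gave values from -1.34 to -0.25. The former came without UCP1 KI replicate 2, with an unadjusted p of 0.00671, and the latter without UCP1 KI replicate 3, with an unadjusted p of 0.599.

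Among the cap-binding proteins, *EIF4E* and *EIF4E3* had the largest fitted differences and the largest spread of all 44 genes. *EIF4E* (ENSSSCG00000028420), which encodes the main cap-binding protein, was at 39.1, 28.2 and 18.3 CPM in UCP1 KI pigs and at 15.9, 106 and 90.7 CPM in WT pigs. WT replicates 2 and 3 were above every UCP1 KI pig, whereas WT replicate 1 was the lowest pig of all. The means were 28.5 ± 10.4 CPM (SD, n = 3) and 70.8 ± 48.2 CPM (SD, n = 3), and the log2 fold change of -1.31 (standard error 0.64, 95% interval -2.79 to 0.17) had an unadjusted p of 0.0756 and an adjusted p of 0.630 from edgeR. The edgeR call turned on WT replicate 1, since without it *EIF4E* was called at -1.78 with an unadjusted p of 0.00246, whereas without WT replicate 2 the value was -0.90. DESeq2 called *EIF4E* with all 6 pigs, at -1.31 with an unadjusted p of 0.0378.

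The fibre type markers of the same libraries differed widely between the WT pigs. The summed level of 6 slow fibre markers of 7 listed was 17911 CPM in WT replicate 1, 4338 and 5645 CPM in WT replicates 2 and 3, and between 7419 and 12821 CPM in UCP1 KI pigs. That of 5 fast fibre markers of 8 listed was 32278 CPM in WT replicate 1, 77143 and 78060 CPM in WT replicates 2 and 3, and between 14704 and 51562 CPM in UCP1 KI pigs. WT replicates 2 and 3 thus had the highest *EIF4E*, the lowest slow sum and the highest fast sum, and WT replicate 1 had the lowest *EIF4E* with the highest slow sum. Within the UCP1 KI pigs *EIF4E* and the slow sum were both highest in replicate 1 and both lowest in replicate 3, the opposite of their relation among WT pigs. The lowest fast sum was in UCP1 KI replicate 2, whose *EIF4E* lay between those of the other UCP1 KI pigs. Against WT, all 6 slow markers and 0 of the 5 fast markers had fitted values above 0, and 0 of either list were called. No measured marker of either list was at 0 in any pig, the myosin heavy chain genes of both lists were among the unmatched ones, and the part of fibre type in the values of *EIF4E* was not tested.

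*EIF4E3* (ENSSSCG00000011516), a cap-binding relative that does not bind 4E-BPs, was at 6.44, 6.25 and 5.62 CPM in UCP1 KI pigs and at 16.4, 2.81 and 29.6 CPM in WT pigs. The UCP1 KI pigs lay within 1.15-fold of each other, while the WT pigs spanned 10.5-fold on both sides of them. Its log2 difference was -1.42 (standard error 0.69), and edgeR gave an unadjusted p of 0.0758 and an adjusted p of 0.630. It was not called, but without WT replicate 2 it was called at -1.92 with an unadjusted p of 0.000753. Without WT replicate 3 the value was -0.66 with an unadjusted p of 0.354. DESeq2 called it with all 6 pigs, at -1.42 with an unadjusted p of 0.0361. *EIF4E2* (4EHP), a weak cap binder of translational repression, was at 21.7, 21.5 and 24.1 CPM against 17.9, 20.9 and 16.4 CPM. Here the groups did not overlap, by a narrow margin, and the log2 fold change of 0.29 (95% interval -0.21 to 0.79) was not called.

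Of the 8 genes for eIF4G scaffolds, eIF4A helicases, their relatives and their RNA-binding helpers, 0 were called, and the groups overlapped in each. *EIF4G1*, the main scaffold, was at 192, 178 and 268 CPM in UCP1 KI pigs and at 116, 145 and 222 CPM in WT pigs, with a log2 fold change of 0.40 (standard error 0.32, 95% interval -0.34 to 1.15) that lay between 0.21 (without UCP1 KI replicate 3 or WT replicate 1) and 0.71 (without WT replicate 3) with 1 pig left out. *EIF4G1* lies 133 kb from *EIF2B5* on chromosome 13, the closest pair among the 44 genes. *EIF4G2* (DAP5), a relative of the scaffold without the eIF4E site, had a log2 fold change of 0.08. *EIF4G3*, the second full scaffold, was at 25.6, 74.1 and 68.9 CPM against 79.5, 60.4 and 32.6 CPM, so that 1 pig of each genotype was low, and its log2 fold change was -0.03 (95% interval -1.12 to 1.05).

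*EIF4A2*, a helicase of eIF4F, was at 742, 883 and 825 CPM in UCP1 KI pigs and at 615 CPM, 602 CPM and 1008 CPM in WT pigs. *EIF4A1*, its close relative, was at 147, 138 and 89.3 CPM against 94.2, 157 and 81.1 CPM. Their log2 fold changes were 0.14 and 0.17 (95% intervals -0.58 to 0.85 and -0.61 to 0.95), that of *EIF4A1* was -0.012 without WT replicate 3, and reads of the pair may be split between them. *EIF4A3*, the helicase of the exon junction complex, had a log2 fold change of 0.12. *EIF4B* and *EIF4H*, the RNA-binding helpers of eIF4A, had values of 0.36 and 0.24, and neither was called.

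*EIF4EBP1* (ENSSSCG00000022301; Sscrofa11.1, chromosome 15, 48423001 to 48443373), the mTORC1 target 4E-BP1, was at 123, 183 and 84.1 CPM in UCP1 KI pigs and at 73.2, 84.0 and 83.3 CPM in WT pigs. The groups did not overlap, but UCP1 KI replicate 3 and WT replicate 2 differed by 0.138 CPM and WT pigs were close together. The means were 130.1 ± 49.8 CPM (SD, n = 3) and 80.2 ± 5.99 CPM (SD, n = 3). The log2 fold change was 0.70 (standard error 0.31, 95% interval -0.03 to 1.43), with an unadjusted p of 0.0573 and an adjusted p of 0.611 from edgeR. It passed the limits without UCP1 KI replicate 3 (0.93), with library size only (0.97) and with all genes of any count in the test (0.72), and was 0.37 with an unadjusted p of 0.247 without UCP1 KI replicate 2. *EIF4EBP2*, the second repressor of this family, was at 80.8, 88.3 and 81.7 CPM against 87.2, 48.3 and 83.0 CPM, with a log2 fold change of 0.20 (95% interval -0.44 to 0.84). *EIF4ENIF1* (4E-T), which carries eIF4E to the nucleus and to processing bodies, was at 6.79, 8.33 and 6.86 CPM against 13.8, 9.02 and 6.04 CPM, a log2 fold change of -0.39 (95% interval -1.18 to 0.39) that was -0.048 without WT replicate 1 and -0.64 without WT replicate 3.

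*EIF6*, which keeps the large ribosomal subunit from joining too early, was at 40.2, 33.9 and 43.9 CPM in UCP1 KI pigs and at 24.7, 42.5 and 35.4 CPM in WT pigs. The fitted difference on the log2 scale was 0.20 (standard error 0.26, 95% interval -0.41 to 0.82), and 0.0065 without WT replicate 1 and 0.39 without WT replicate 2. *EIF5A2*, a hypusinated factor that relieves stalled ribosomes, was the least counted member at 1.42, 2.66 and 1.62 CPM against 2.81, 2.67 and 1.40 CPM. *EIF5A2* had a log2 fold change of -0.27 (95% interval -1.27 to 0.73), which was 0.0028 with library size only. Leaving out 1 pig gave values from -0.61 (without UCP1 KI replicate 2) to -0.10 (without UCP1 KI replicate 1).

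The WT pigs stood at both ends of the range for many of the 44 genes. WT replicate 1 had the lowest CPM of the 6 pigs in 24 of the 44 genes (54.5%), beside 19.4% of all genes tested, and WT replicate 3 had the highest in 17 of them (38.6%), beside 14.8% of all genes. Summed over the 44 genes, the level was 6176, 6561 and 6306 CPM in UCP1 KI pigs and 4577, 5622 and 7181 CPM in WT pigs, so that the lowest and the highest pig were both WT. As a share of all raw counts, before any scaling, the 44 genes held 0.585%, 0.774% and 0.737% in the UCP1 KI pigs, against 0.488%, 0.439% and 0.659% in the WT pigs, which also overlapped. The highest pig was above the lowest by a median of 1.78-fold for the 44 genes and 2.40-fold for all genes tested. For 12 of the 44 genes this ratio was above 2, and it reached 3.11 for *EIF4G3*, 3.14 for *EIF2AK2*, 3.90 for *EIF3J*, 6.67 for *EIF4E* and 10.5 for *EIF4E3*.

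**Figure D3:**
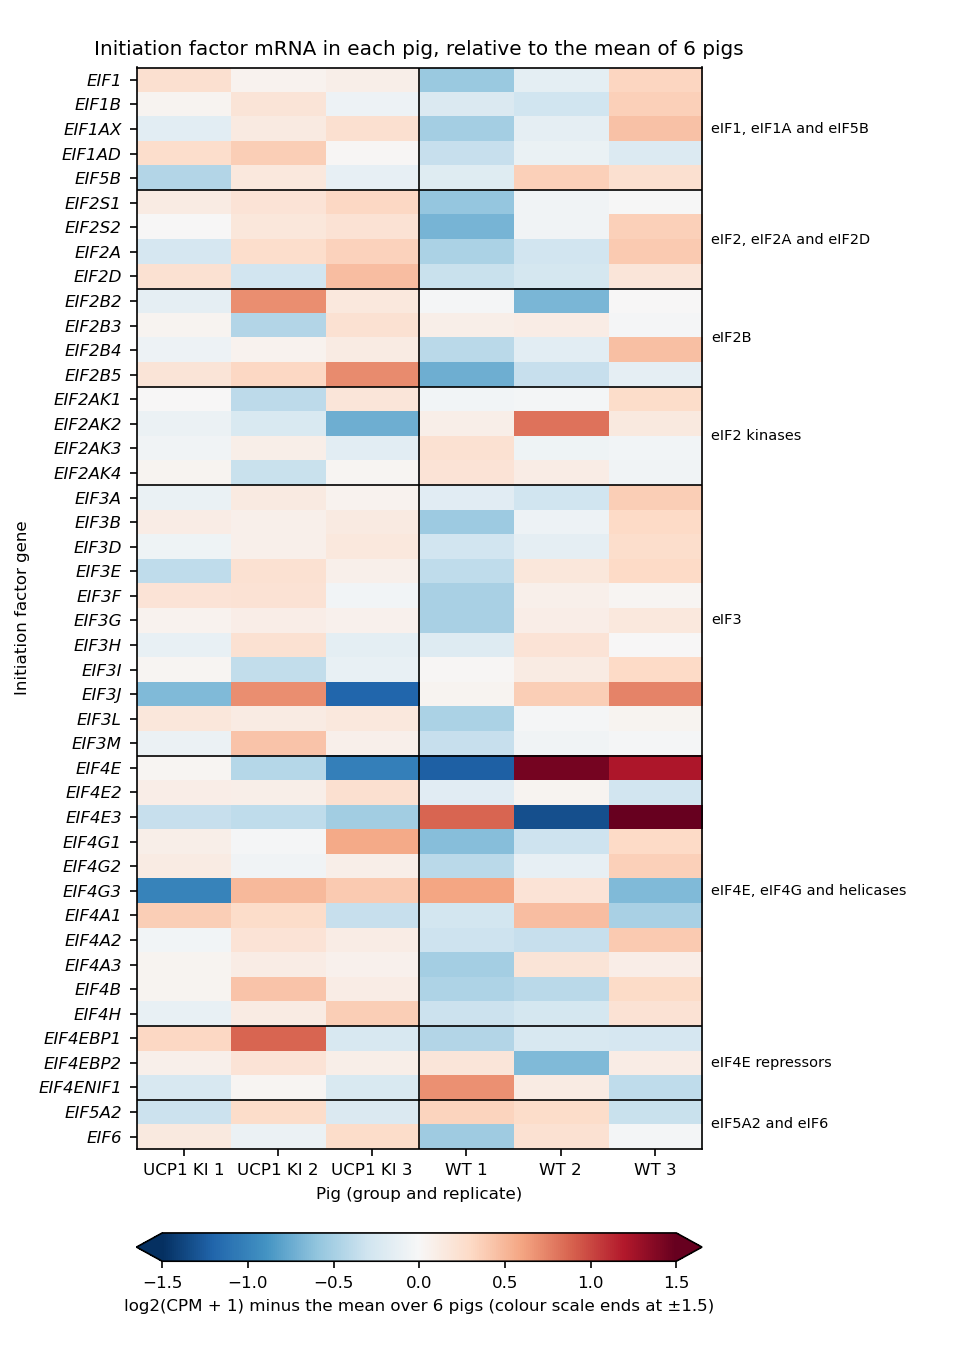
Level of each of the 44 genes (rows, ordered by role) in each pig (columns), as log2(CPM + 1) minus the mean of that gene over the 6 pigs, with red above and blue below it. WT replicate 1 is blue in most rows and WT replicate 3 red in most, and *EIF4E*, *EIF4E3* and *EIF3J* show the strongest colours.

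**Figure D4:**
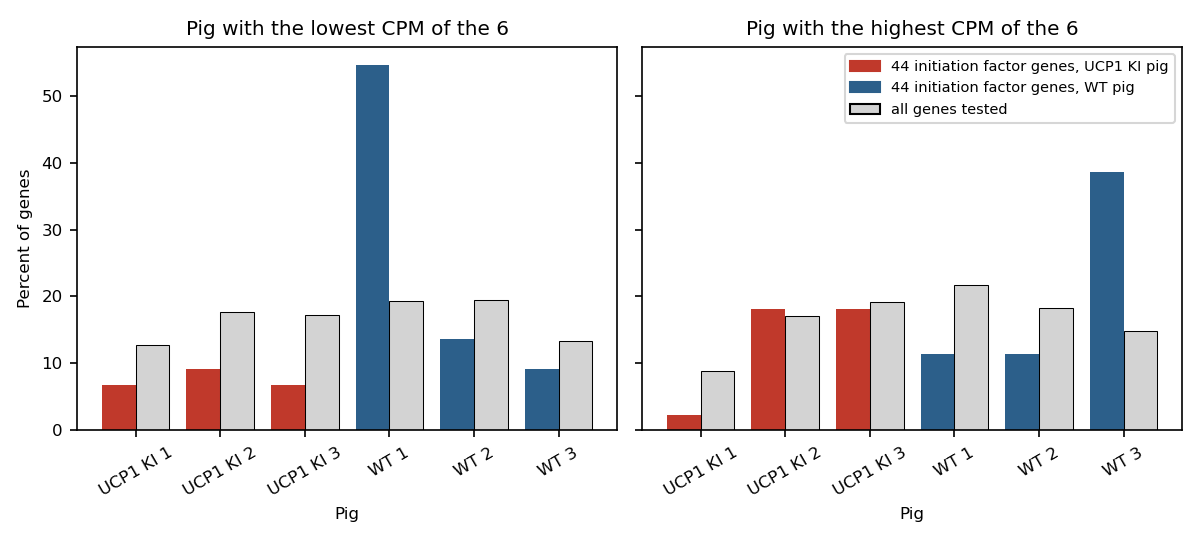
Percent of the 44 initiation factor genes (coloured bars) and of all 13402 genes tested (grey bars) for which each pig had the lowest (left) or the highest (right) CPM of the 6. WT replicate 1 was lowest for 54.5% of the 44 genes and WT replicate 3 was highest for 38.6% of them.

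Ratios of related genes within a pig do not depend on how libraries are scaled, and 8 pairs were compared as the log2 ratio of their counts. *EIF4G1* to *EIF4G2* was the single pair without overlap, with log2 ratios of -1.96, -1.90 and -1.44 in UCP1 KI replicates 1 to 3, against -2.16, -2.12 and -1.98 in WT replicates 1 to 3. Their mean difference was 0.32. The two-sided exact permutation test gave p = 0.1, the smallest that 3 against 3 allow and the value that a lack of overlap fixes. After Benjamini-Hochberg adjustment over the 8 pairs it was 0.8. *EIF4E* to *EIF4E2* was at 0.85, 0.39 and -0.39 in UCP1 KI pigs and at -0.17, 2.34 and 2.46 in WT pigs (difference -1.26, exact permutation p = 0.3). *EIF4A1* to *EIF4A2* had nearly equal means, -2.74 ± 0.44 (SD, n = 3) and -2.76 ± 0.85 (SD, n = 3), while the pigs spread from -3.64 to -1.94. *EIF4EBP1* to *EIF4EBP2* differed by 0.38 (exact permutation p = 0.4), and the other 4 pairs by -0.10 to 0.52 with exact permutation p values from 0.5 to 1. Single pigs weighed heavily on these differences. Leaving out 1 pig gave -1.26 (without WT replicate 1) to 1.38 (without WT replicate 2) for *EIF4E*/*EIF4E3*, 0.03 (without WT replicate 1) to 1.14 (without WT replicate 3) for *EIF4G1*/*EIF4G3*, and -2.12 (without WT replicate 1) to -0.80 (without WT replicate 3) for *EIF4E*/*EIF4E2*. Without UCP1 KI replicate 3 the difference of *EIF4G1*/*EIF4G2* was 0.16.

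**Figure D5:**
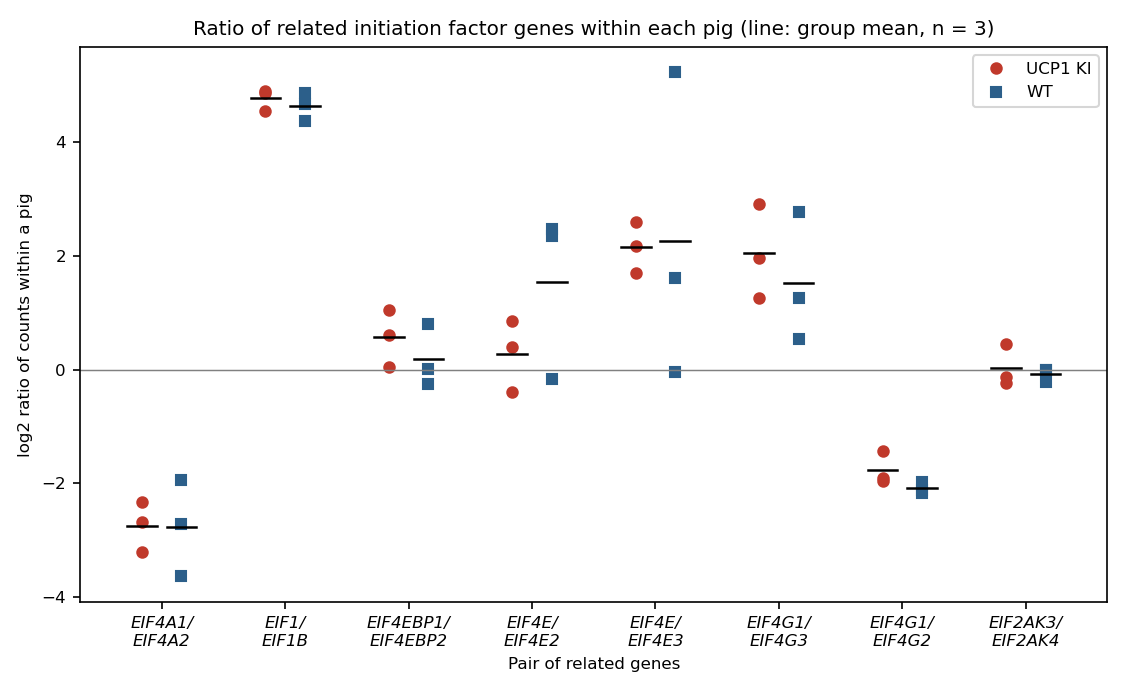
log2 ratio of the counts of 2 related genes within each pig (vertical axis) for 8 pairs, with UCP1 KI pigs as circles, WT pigs as squares and group means as lines. *EIF4E*/*EIF4E3* spreads from -0.05 to 5.23 within the WT pigs, and *EIF4G1*/*EIF4G2* separates the genotypes by a small gap.

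Beyond the factors themselves, 39 partners and regulators of initiation were listed, of which 38 were tested. They include the mTORC1 kinase and its controls, the eIF4E kinases, the poly(A)-binding proteins, the eIF2α phosphatase subunits and factors of ribosome recycling. *MKNK2* (MNK2), a kinase that phosphorylates eIF4E, was the 1 gene of the 38 that was called (2.63%, beside 8.19% of all genes). *MKNK2* was at 146, 193 and 115 CPM in UCP1 KI pigs and at 81.1, 68.9 and 122 CPM in WT pigs, which overlapped. The fitted log2 difference, 0.74 with a standard error of 0.31, had an unadjusted p of 0.0479 and an adjusted p of 0.605 from edgeR. It was no longer called with median-of-ratios factors (0.74, unadjusted p of 0.0502 from edgeR), without UCP1 KI replicate 1 or 2 (0.77 and 0.52) or without WT replicate 1 or 2 (0.66 and 0.57). *PDCD4*, an inhibitor of eIF4A, was at 9.67, 10.3 and 19.0 CPM against 16.2, 28.8 and 22.4 CPM, and the log2 difference of -0.79 (standard error 0.35, unadjusted p of 0.0577 from edgeR) was not called. The median log2 fold change of the 38 genes was 0.03.

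Of 26 factors of elongation and termination listed, 19 were tested and 2 were called (10.5%, near the 8.19% of all genes). *EEF1E1*, a scaffold of the aminoacyl-tRNA synthetase complex, rose to 4.51 ± 0.251 CPM (SD, n = 3) in the UCP1 KI pigs, from 2.73 ± 0.527 CPM in the WT pigs (log2 fold change 0.73, unadjusted p of 0.0392 and adjusted p of 0.603 from edgeR). *DNAJC24*, a co-factor of diphthamide synthesis on eEF2, fell to 1.28 ± 0.638 CPM (SD, n = 3), from 2.999 ± 0.268 CPM (log2 fold change -1.23, unadjusted p of 0.0258 and adjusted p of 0.583 from edgeR). Neither gene overlapped between the groups, and 5 of the 19 did not in all, beside 15.3% of all genes, with *DPH2*, *GSPT2* and *MTRF1* uncalled at log2 differences of 0.26, -1.0035 and 0.75. Leaving out any single pig other than WT replicate 3 ended the call of *EEF1E1*, at log2 fold changes of 0.57 to 0.80. For *DNAJC24* any single pig other than UCP1 KI replicate 2 and WT replicate 2 did so, at -1.21 to -0.92, as did library size only, at -0.99. *EEF1A2*, the elongation factor of mature muscle, was at 3037, 2741 and 2720 CPM in UCP1 KI pigs and at 1743, 2197 and 3394 CPM in WT pigs, with a log2 fold change of 0.21 (standard error 0.35). *EEF2*, the translocase, was at 1099.7, 1429 and 1105 CPM against 647, 744 and 1232 CPM, a log2 fold change of 0.47 (standard error 0.34). WT replicate 1 was the lowest and WT replicate 3 the highest of the WT pigs for both genes. The median over the 19 genes was 0.21.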

How the data were processed

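Longissimus dorsi mRNA was measured in 3 UCP1 KI and 3 WT pigs. The authors trimmed paired-end reads with Trimmomatic 0.36, mapped them with HISAT2 2.0 and deposited raw counts per Ensembl gene without normalization. The submitters' processing notes name build Sscrofa11.1, FastQC 0.11.2 and StringTie 1.3.3b. The counting program, its use of strand and the annotation release are not given in the sources used here. Columns left unused numbered 0. The labels do not say that libraries came from separate pigs. The study's captions give n = 3 per group, and each library was taken here as 1 pig. The p-values measure the spread between these libraries.

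The counts went into edgeR 4.0.16 (R 4.3.3), where filterByExpr retained 13402 of 30476 genes. TMM factors scaled the libraries, and genotype alone was fitted and tested two-sided by the quasi-likelihood F test. Calls used the limits of the study's methods, p under 0.05, here unadjusted, and a log2 fold change over 0.5 in size. Standard errors are the log2 fold change divided by the square root of F, with 95% intervals from the t distribution at the test's degrees of freedom. Permutation tests used log2(CPM + 1), and pair ratios used counts + 0.5. A count of 0 allows 3 counts, for counting error only. Depth was 30220951 to 35066624 counts.

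Symbols were looked up by Ensembl identifier, and positions came from RefSeq's annotation of Sscrofa11.1, matched by symbol for all 44 genes. That table lists 3 of the 44, *EIF2B4*, *EIF3B* and *EIF4B*, as lncRNA. Levels were not compared between genes, because transcript lengths were not used here. Of 9 pairs planned, 8 could be measured. Genes described in full were those called, those without overlap and a set of well-known members, and the others are given by role, with the extreme ones named. The members and lists were chosen with earlier results of these data known. Alternatives were median-of-ratios factors, library size only, 3 other filters, DESeq2 1.42.0, each pig left out, a block for replicate number and no fold change limit. DESeq2 on all genes with any count was added after the values were seen. The edgeR step was tested on simulated data.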

Additional observations from a re-analysis of the deposited data

How the results depend on the processing

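Of all genes, 1097 were called, and between 678 and 1541 with 1 pig left out. The lowest count came without UCP1 KI replicate 2 and the next, 718, without WT replicate 2. Among the 44 initiation factors, 1 was called higher and 1 lower. With library size only these counts were 4 and 0 (8.39% of all genes called), with all genes of any count 2 and 1 (6.78%), with DESeq2 on the same genes 1 and 3 (9.77%), and with DESeq2 on all genes with any count 2 and 3 (6.92%). With 1 pig left out, 1 to 2 were called higher and 0 to 2 lower, beside 4.92% to 11.12% of all genes. The cause was not tested. The median log2 fold change of the 44 genes was 0.40 with library size only and between -0.015 and 0.29 with 1 pig left out. Members without overlap numbered 6 with median-of-ratios factors (15.4% of all genes), 9 with library size only (14.6%), and 8 to 23 with 1 pig left out, where 21.3% to 32.4% of all genes did not overlap. The count of 23 belongs to the fit without WT replicate 3. Partners and regulators called numbered 0 with median-of-ratios factors, 2 with library size only, 2 with DESeq2 on the same genes and 0 to 3 with 1 pig left out. Elongation and termination factors called numbered 0 to 4 with 1 pig left out. The 3 and the 4 came without WT replicate 3, where 11.12% of all genes were called.

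The sign of some uncalled genes changed. With library size only it did for *EIF2AK1* (0.12), *EIF2AK3* (0.14), *EIF2AK4* (0.05), *EIF2B3* (0.15), *EIF3E* (0.24), *EIF3H* (0.27), *EIF4G3* (0.25), *EIF5A2* (0.0028) and *EIF5B* (0.027). With 1 pig left out, log2 fold changes ran from -0.18 to 0.0125 for *EIF2AK3*, from -0.25 to 0.071 for *EIF2B3*, from -0.040 to 0.48 for *EIF2S2*, from -0.10 to 0.27 for *EIF3A* and from -0.012 to 0.51 for *EIF4A1*. It also changed for *EIF1AX*, *EIF1B*, *EIF2AK1*, *EIF2B4*, *EIF3B*, *EIF3D*, *EIF3E*, *EIF3G*, *EIF3H*, *EIF4A3*, *EIF4EBP2*, *EIF4G2* and *EIF4G3*, and 26 of the 44 genes had one sign in all 6 such fits.

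The replicate numbers are shared between the genotypes, but nothing in the labels says that they pair pigs. Deviations from the group means correlated at 0.017, 0.070 and 0.235 for numbers 1, 2 and 3, and UCP1 KI replicates 1 and 2 each correlated better with a WT pig of another number. With the replicate number as a block, 1114 genes were called, *EIF2B5* and *EIF2AK2* remained the called members, and the elongation and termination factors called went from 2 to 1, without *EEF1E1* (0.74, unadjusted p of 0.0555 from edgeR). *MKNK2* was not called either (0.75, unadjusted p of 0.0799 from edgeR), while another partner was, so that the count for that list stayed at 1.

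Depth limits what can be said of *EIF4E1B*, at 0 counts in every pig.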

Other observations

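The mitochondrial initiation factors and genes downstream of eIF2 were looked at after the values of the cytosolic factors were seen. *MTIF2*, the mitochondrial counterpart of the tRNA-delivering factor, was at 5.43, 4.32 and 7.13 CPM in UCP1 KI pigs and at 5.24, 4.86 and 7.61 CPM in WT pigs, with a log2 difference of -0.07 (standard error 0.31). *MTIF3*, which helps the mitochondrial ribosome to choose the start codon, was at 8.21, 9.23 and 7.66 CPM against 6.17, 9.57 and 12.2 CPM, a log2 fold change of -0.16 (standard error 0.30). *DDIT3* (CHOP), a transcription factor of the integrated stress response, was at 34.96, 15.2 and 24.2 CPM against 20.1, 18.1 and 16.5 CPM, with the highest level in UCP1 KI replicate 1 and the lowest in UCP1 KI replicate 2. *TRIB3* was at 2.13, 1.35 and 0.318 CPM against 0.524, 1.096 and 0.901 CPM. *ASNS*, asparagine synthetase, was at 9.61, 4.52 and 5.19 CPM against 4.33, 10.3 and 7.88 CPM. *ATF4*, also on that list, was paired with no identifier and was not measured. Of the 5 genes measured, 0 were called by edgeR and the groups overlapped in each. Of the 38 partners and regulators tested, *PPP1R15B* was the 1 without overlap, beside 15.3% of all genes, and is named for that. *PPP1R15B*, a subunit of the eIF2α phosphatase, was higher in every UCP1 KI pig, at 15.6, 19.8 and 18.9 CPM against 14.3, 15.4 and 11.5 CPM, and its log2 difference of 0.40 (standard error 0.24) was not called. *PPP1R15A*, the stress-induced subunit, overlapped, with a log2 difference of 0.02 (standard error 0.30).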
